A study of Mus musculus with 12 samples.

Results

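GFP+ cells recovered from the brain after intravenous (i.v.) delivery of transduced hematopoietic stem/progenitor cells (HSPCs) were compared with those recovered after intracerebroventricular (i.c.v.) delivery. The comparison rests on 4 droplet single-cell RNA libraries, 1 from a female and 1 from a male recipient per route. A barcode was used as a cell if it had 200 or more detected genes and no more than 10% mitochondrial UMIs, where UMIs (unique molecular identifiers) count captured RNA molecules. This gave 11767 GFP+ cells of 30775 cells in the whole series, with 3344 and 2266 cells from the i.v.-dosed female and male and 2621 and 3536 cells from the i.c.v.-dosed female and male. The comparison was then repeated on the 10611 cells left once every cell with any UMI of Ly6c2, Ccr2, Plac8, Cd209a, Flt3, S100a8 or S100a9 had been taken out. These 7 genes mark monocytes, dendritic cells and neutrophils.

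All 4 recipients were C57BL/6J mice conditioned with busulfan, a drug that depletes blood-forming cells. Each received lineage-negative marrow cells from male donors that carried a lentiviral GFP vector, either into a vein or into 1 lateral ventricle, and days later all of them, i.c.v.-dosed animals included, received unmodified whole marrow by vein. CD45+ CD11b+ CX3CR1+ cells were sorted by GFP from perfused, dissociated whole brain, and the GFP- cells of the same 4 mice were sequenced alongside (15672 cells in 4 libraries). By the series text the brains were taken 12 to 13 months after the cells were given, and by the labels the mice were aged 22 to 28 weeks, and these statements were not reconciled. With 2 animals per route, gene p-values rest on a spread estimated over all 8 treated libraries and shared across genes, not on those animals alone. GFP+ and GFP- libraries of the same mouse entered the main test as separate samples. Route cannot be told apart from anything else that differed between the pairs of mice.

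Marrow-derived cells that settle in the brain take on a macrophage form that resembles microglia, the resident macrophages of the parenchyma, and are called microglia-like cells (MLCs). Monocytes are circulating marrow cells that enter tissue and turn into macrophages or dendritic-like cells, and neutrophils are short-lived granule-bearing phagocytes of the blood. MHC class II molecules present peptides to CD4 T cells and are carried by dendritic cells, by B cells and by macrophages of the brain's borders, while resting microglia carry little of them.

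The labels were first checked against the data. EGFP, the transgene, was at 31.8 and 28.1 CPM against 34.5 and 18.2 CPM in the i.v. and i.c.v. GFP+ libraries (CPM, UMIs scaled to library size, here and below in the order i.v. female, i.v. male, i.c.v. female, i.c.v. male) and at 0 and 0.132 CPM against 0.119 and 0.119 CPM in the GFP- libraries. Its level was not called different by route (log2 fold change 0.19, standard error 0.28, adjusted p = 0.786 by edgeR's quasi-likelihood test). Uty, a Y-linked gene, was at 30.2 and 33.5 CPM against 28.9 and 31.7 CPM in GFP+ cells, from female and male recipients of the male-donor cells alike. With every cell thinned to 500 UMIs, UMIs of at least 2 of 13 microglial markers were found in 63.7% and 54.3% against 79.2% and 76.3% of GFP+ cells, and of at least 2 of 10 markers of CNS-associated macrophages (CAMs), the macrophages of meninges, vessels and choroid plexus, in 27.1% and 26.5% against 22.7% and 29.3%. The median was 3499 UMIs per cell in GFP+ cells of the i.v. female and between 1058 and 1307.5 elsewhere among GFP+ libraries, library totals ran from 8835197 to 16514669 UMIs, and pairs of treated libraries shared 0 to 8 cell barcodes.

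In all kept GFP+ cells, most listed neutrophil and monocyte markers, 3 of 10 dendritic cell markers and all 8 listed MHC class II genes were higher after i.v. delivery. A smaller group was lower after i.v. delivery, among them Adamts1, Nav3, Crybb1 and Cd34. UMIs were summed per library, scaled by TMM (a normalization that centres the bulk of genes) and compared by a two-sided quasi-likelihood test in edgeR fitted to all 8 treated libraries, with a gene called at a Benjamini-Hochberg adjusted p under 0.05. Of 12540 genes tested, 321 rose (2.56%) and 27 fell (0.215%), while 2066 had an unadjusted p under 0.05, and the median log2 fold change over all tested genes was 0.00. Counts of called genes in each list below stand beside these shares. Leaving out the i.c.v. female's GFP+ cells gave 42 called genes in place of 348, and leaving out those of the i.c.v. male gave 180. Fitted to the 4 GFP+ libraries alone, 226 rose and 7 fell, with 5 of the 7 among the 27, and DESeq2 called 444 higher and 82 lower.

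Of the 321 higher genes, 277 (86.3%) had a higher level in the blood cells of a treatment-naive C57BL/6J mouse (8 to 12 weeks old by the labels) than in its sorted microglia, against 41.1% of all tested genes. All 27 lower genes were higher in those naive microglia, against 57.4% of all tested genes. Each naive population is 1 library, and the naive microglia library held a summed neutrophil-marker level of 9230.1 CPM, so these counts are a description. In summed RNA, more cells of a type and more RNA per cell cannot be told apart.

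In GFP+ cells, neutrophil genes were present after i.v. delivery and nearly absent after i.c.v. delivery. In GFP- cells the summed neutrophil markers were at 231 and 53.2 CPM against 5760 and 915 CPM. S100a9, which encodes a subunit of the calcium-binding protein calprotectin, was at 873 and 1789 CPM against 0 and 0 CPM. It had 27978 UMIs in the i.v. libraries and 0 in the i.c.v. libraries, at least 6977-fold higher against a floor of 3 UMIs over both i.c.v. libraries (adjusted p = 0.00892). Such bounds, and the counting intervals of ratios below, pool the UMIs of both mice of a route. UMIs of the same cell are not independent draws, so neither covers the spread between cells or between mice. S100a8, which encodes the partner subunit, was at 626 and 1145 CPM against 0 and 0 CPM, at least 4709-fold higher on the same floor (adjusted p = 0.0122). Both i.v. GFP+ libraries were high, the male above the female, and no UMI of either gene was seen in an i.c.v. GFP+ library.

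Genes of granule formation had the same order. Camp, which encodes cathelicidin, was at 104 and 259 CPM against 0 and 0 CPM (at least 930.5-fold higher, adjusted p = 0.00706). Ngp, which encodes neutrophilic granule protein, was at 88.3 and 289 CPM against 0 and 0 CPM (at least 938-fold higher, adjusted p = 0.00939). Retnlg, a resistin-like gene of neutrophils, was at 119 and 182 CPM against 0 and 0 CPM (at least 819-fold higher, adjusted p = 0.0394). For all 3 genes the i.v. libraries held every UMI found in GFP+ cells. Ltf, which encodes the iron-binding lactoferrin, gave 1022 UMIs against 3, a ratio of 255 with an exact 95% counting interval of 87 to 1238 (adjusted p = 0.00791). Lcn2, which encodes the siderophore-binding lipocalin 2, gave 1977 UMIs against 2, a ratio of 739.6 with an exact 95% counting interval of 204 to 6111 (adjusted p = 0.00899). Of 10 listed neutrophil markers 8 rose and none fell, with a median log2 fold change of 10.98, or 8.91 with empty genes set at their bound, and the summed level of the list was 1869.5 and 3777 CPM against 1.88 and 8.47 CPM. With the i.c.v. female's GFP+ cells left out, 0 of the 10 were called by edgeR.

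**Figure D1:**
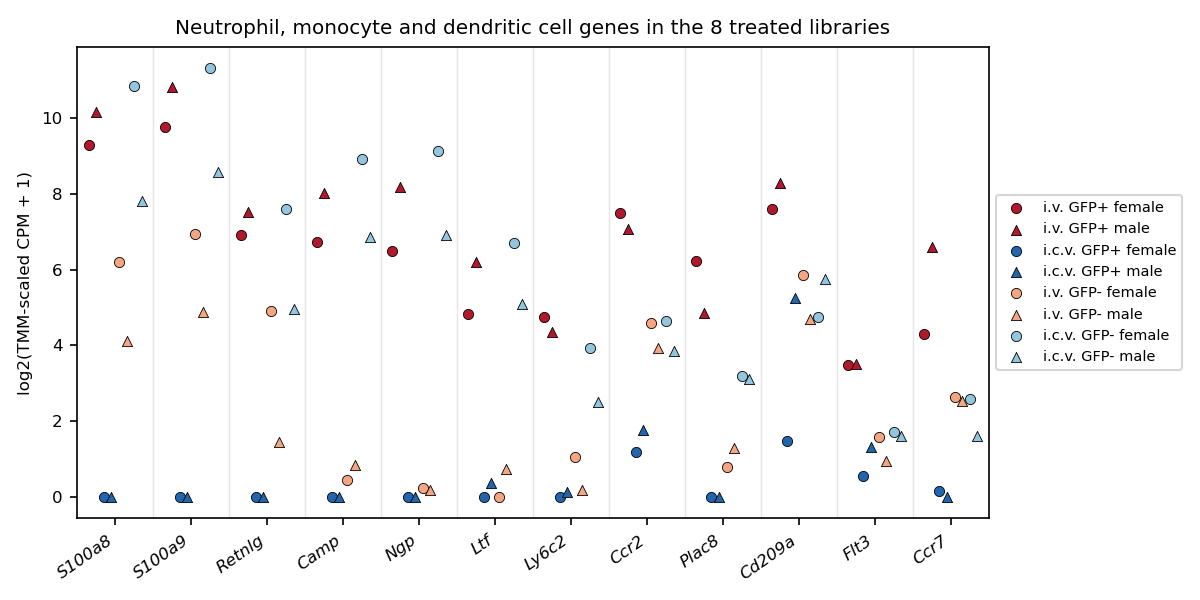
Log2(TMM-scaled CPM + 1) of 12 neutrophil, monocyte and dendritic cell genes on the vertical axis, with 1 point per library for the 8 treated libraries. Both i.v. GFP+ libraries lie above both i.c.v. GFP+ libraries for each gene shown, and for S100a8, S100a9, Camp and Ngp the i.c.v. GFP- libraries lie above the i.v. GFP- libraries.

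Among classical monocyte genes, Ccr2 encodes the chemokine receptor by which monocytes leave the marrow and enter tissue. It was at 179 and 134 CPM against 1.29 and 2.39 CPM, with both i.v. libraries far above both i.c.v. libraries (log2 fold change 6.38, standard error 0.42, adjusted p = 0.000903), and it was called in all 19 alternative fits. Plac8, a gene of monocytes and plasmacytoid dendritic cells, was at 73.5 and 28.1 CPM against 0 and 0 CPM (at least 326-fold higher, adjusted p = 0.00349). Ly6c2, the antigen that marks inflammatory monocytes and a close relative of Ly6c1, gave 539 UMIs against 1, a ratio of 403 with an exact 95% counting interval of 72.1 to 15957 (adjusted p = 0.00561). Of 11 classical monocyte markers 8 rose and none fell, with a median log2 fold change of 8.39, or 5.18 with empty genes at their bound. With the i.c.v. female's GFP+ cells left out 2 of the 11 were called, and without those of its male counterpart 5. Hp, which encodes haptoglobin, had no UMI after i.c.v. delivery and was at least 132-fold higher after i.v. delivery on the same floor (adjusted p = 0.0261). Ms4a4c, a membrane gene of the Ms4a family, was at 119 and 95.8 CPM against 28.2 and 39.8 CPM (log2 fold change 1.66, standard error 0.25, adjusted p = 0.0108).

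Markers of patrolling monocytes, the subset that crawls along vessel walls, rose in 6 of 8 cases and none fell, with a median log2 fold change of 5.72, or 5.40 with the empty gene at its bound, and with the i.c.v. female's GFP+ cells left out 3 were called. Ear2, a ribonuclease gene with close paralogs, gave 641 UMIs against 1, a ratio of 479.6 with an exact 95% counting interval of 85.8 to 18972 (adjusted p = 0.00694). Ace, which encodes angiotensin-converting enzyme, gave 150 UMIs against 1, a ratio of 112 with an exact 95% counting interval of 19.8 to 4462 (adjusted p = 0.00349). The list's summed level overlapped between routes, at 271 and 485 CPM against 383 and 400.0 CPM, and Nr4a1, an immediate-early gene of the list that was not called, was at 181 and 397 CPM against 365 and 383 CPM. Kit, the stem cell factor receptor of progenitors, gave 140 UMIs against 1, a ratio of 105 with an exact 95% counting interval of 18.5 to 4166 (adjusted p = 0.00559). Of 6 listed progenitor genes 2 were tested, and the other, Cd34, was called lower after i.v. delivery. The summed level of that list was 26.0 and 26.4 CPM against 54.1 and 35.1 CPM.

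Dendritic cell genes were mixed. Ccr7, the receptor that guides dendritic cells to lymph nodes, was at 18.5 and 95.9 CPM against 0.117 and 0 CPM, giving 1090 UMIs against 1, a ratio of 816 with an exact 95% counting interval of 146 to 32240.2 (adjusted p = 0.00762). Its level was higher in the i.v. male than in the i.v. female, and both lay above the i.c.v. libraries. Flt3, the cytokine receptor of dendritic cell precursors, was at 10.1 and 10.4 CPM against 0.469 and 1.5 CPM (log2 fold change 3.33, standard error 0.46, adjusted p = 0.00789). Klrd1, a lectin receptor gene better known from natural killer cells, was at 63.8 and 44.7 CPM against 2.46 and 5.78 CPM (log2 fold change 3.69, standard error 0.44, adjusted p = 0.00584). Cd209a, a lectin of monocyte-derived dendritic cells, was the 1 gene of the 7 that was not called. It was at 192 and 310.3 CPM against 1.76 and 36.9 CPM (log2 fold change 3.68, standard error 0.97, adjusted p = 0.104), and its i.c.v. male library held far more than its i.c.v. female library. In all, 3 of 10 dendritic markers tested rose and none fell by edgeR, and 0 were called with the i.c.v. female's GFP+ cells left out or with cells above 5000 UMIs left out. Ccl17, a chemokine of dendritic cells, was at least 193-fold higher (adjusted p = 0.0339), and Retnla, a resistin-like gene of alternatively activated macrophages, was at least 167-fold higher (adjusted p = 0.0242), both with 0 UMIs after i.c.v. delivery.

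All 8 MHC class II genes rose, of which 4 were called in a fit to the 4 GFP+ libraries alone and 6 with either i.c.v. GFP+ library left out. Class II promoters carry a conserved module that ends in a Y box, an inverted CCAAT element bound by the factor NF-Y. The 150 bases before the RefSeq start site (GRCm38.p6) are shown for 3 genes that rose and for H2-DMa, the member with the smallest change, read 5′ to 3′ on the gene's strand with CCAAT or its reverse complement ATTGG in capitals.
H2-Aa (chr17:34287824-34287973, minus strand): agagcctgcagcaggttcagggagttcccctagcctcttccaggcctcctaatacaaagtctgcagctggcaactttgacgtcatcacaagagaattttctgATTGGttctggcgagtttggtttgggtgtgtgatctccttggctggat
H2-Eb1 (chr17:34305717-34305866, plus strand): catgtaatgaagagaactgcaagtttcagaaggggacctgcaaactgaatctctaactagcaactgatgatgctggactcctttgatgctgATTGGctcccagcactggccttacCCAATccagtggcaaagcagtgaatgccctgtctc
H2-DMb1 (chr17:34153041-34153190, plus strand): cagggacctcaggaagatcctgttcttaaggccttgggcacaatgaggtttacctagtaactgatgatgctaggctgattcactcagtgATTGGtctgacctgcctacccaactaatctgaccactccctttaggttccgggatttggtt
H2-DMa (chr17:34122682-34122831, plus strand): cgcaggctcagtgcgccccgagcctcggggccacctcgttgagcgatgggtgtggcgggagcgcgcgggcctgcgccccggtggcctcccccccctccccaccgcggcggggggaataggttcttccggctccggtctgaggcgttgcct

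Of the 8 genes, 5 were examined in the promoter table, and 4 of the 5 windows held a match on either strand, as did 24.5% (8047 of 32851) of all promoter windows of that length. H2-DMa was the 1 examined window without these letters, which says nothing of the factor. The promoters of H2-Ab1, Ciita and Cd74 were not examined.

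Cd74, the invariant chain that escorts class II molecules through the cell, was at 12919 and 14531 CPM against 432 and 1653 CPM (log2 fold change 3.72, standard error 0.54, adjusted p = 0.01). The i.v. libraries were close to each other, the i.c.v. male lay well above the i.c.v. female, and the routes did not overlap. The i.v. level was 29.9 times the i.c.v. level in females and 8.79 times in males. H2-Aa, an α chain, was at 5989 and 6464 CPM against 143 and 733 CPM (log2 fold change 3.83, standard error 0.64, adjusted p = 0.0183). H2-Eb1, a β chain, was at 5769.6 and 5471 CPM against 111 and 569.9 CPM (log2 fold change 4.04, standard error 0.66, adjusted p = 0.0167), and its within-sex ratios were 52.1 in females and 9.6 in males. H2-Ab1, the β chain that pairs with H2-Aa, was at 5687 and 5602 CPM against 122 and 596 CPM (log2 fold change 3.98, standard error 0.64, adjusted p = 0.0155).

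Ciita, the transactivator that switches class II genes on, was at 52.5 and 54 CPM against 1.53 and 6.68 CPM (log2 fold change 3.66, standard error 0.46, adjusted p = 0.00665), and it was called in all 19 alternative fits. The peptide-loading genes changed less. H2-DMb1 was at 461 and 473 CPM against 102 and 139 CPM (log2 fold change 1.96, standard error 0.18, adjusted p = 0.00256), with no overlap between routes. H2-DMa, the other chain of the loading molecule, was at 759 and 698 CPM against 409.9 and 441 CPM (log2 fold change 0.77, standard error 0.15, adjusted p = 0.0332), and it was called in 9 of 19 alternative fits. H2-Oa, a chain of the molecule that restrains loading, was at 61.7 and 50.9 CPM against 13.7 and 16 CPM (log2 fold change 1.92, standard error 0.30, adjusted p = 0.0132). The list's median log2 fold change was 3.69 and its summed level was 31699 and 33344 CPM against 1334 and 4153 CPM.

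**Figure D2:**
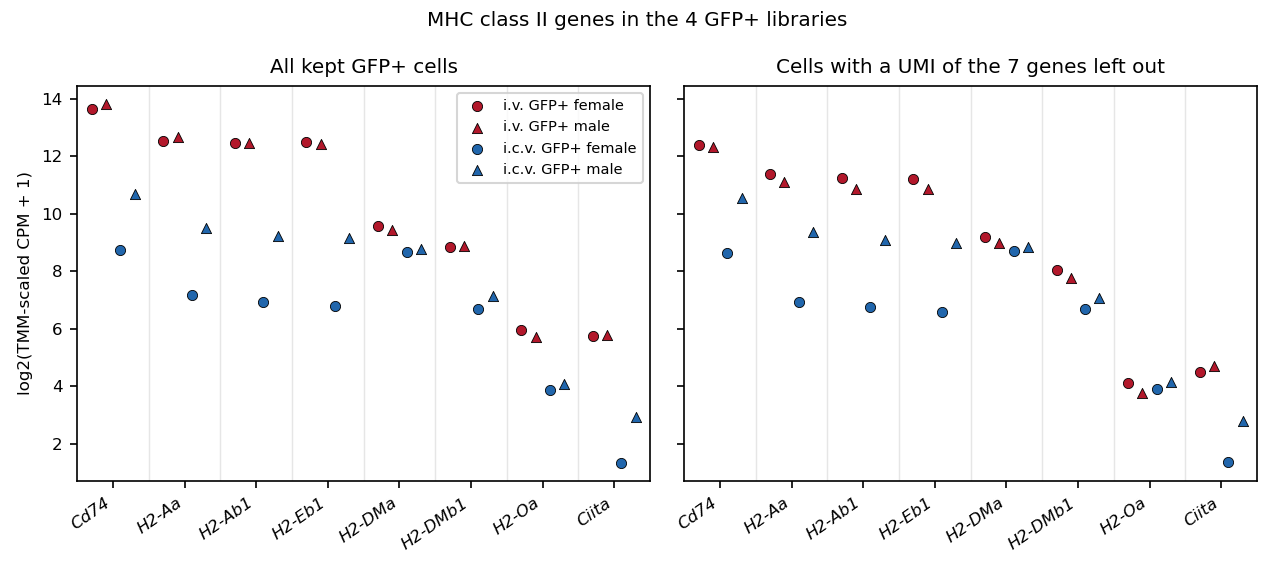
Log2(TMM-scaled CPM + 1) of the 8 MHC class II genes on the vertical axis, with 1 point per GFP+ library, in all kept cells (left) and with cells holding a UMI of the 7 genes left out (right). On the left both i.v. libraries lie above both i.c.v. libraries for every gene, and the i.c.v. female lies lowest for Cd74 and the H2-Aa, H2-Ab1 and H2-Eb1 chains.

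Chemokine and adhesion genes moved in part. Of 16 chemokines and receptors 4 rose and none fell, beside 2.56% and 0.215% of all tested genes, with a median log2 fold change of 0.33. That median was 0.08 with the i.c.v. female's GFP+ cells left out. Without overlap between routes, 6 of the 16 were higher and 2 lower after i.v. delivery, beside 23.6% and 22.9% of all tested genes. The summed level overlapped, at 5112 and 6439 CPM against 4991 and 6093 CPM. Ccl9 was at 62.9 and 82.5 CPM against 6.57 and 8.77 CPM (log2 fold change 3.23, standard error 0.21, adjusted p = 0.000903) and was called in every alternative fit. Cxcl9, an interferon-γ-induced ligand of T cell receptors for chemokines, was at 30.7 and 128 CPM against 0.117 and 3.79 CPM (log2 fold change 5.25, standard error 0.91, adjusted p = 0.0218). Ccl5 was at 123 and 181 CPM against 8.1 and 12.7 CPM (adjusted p = 0.0452), and Ccl6 was at 149 and 133 CPM against 43 and 55.8 CPM (adjusted p = 0.0101). In each of these the routes did not overlap.

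Itgb7, the integrin β7 chain used in homing to gut and inflamed tissue, was at 38.9 and 49.7 CPM against 0.939 and 0.698 CPM (log2 fold change 5.74, standard error 0.36, adjusted p = 0.000903). Cd44, the hyaluronan receptor, was at 38.9 and 88.3 CPM against 6.81 and 8.97 CPM (log2 fold change 2.99, standard error 0.41, adjusted p = 0.0077). Both were among the 3 of 12 adhesion genes that rose, and edgeR called none lower where DESeq2 called 1. Lsp1, a leukocyte actin-binding protein, was at 296 and 389 CPM against 14.4 and 20.8 CPM (log2 fold change 4.27, standard error 0.30, adjusted p = 0.00102). Emb, which encodes embigin and was chosen after its values were seen, was at 54.4 and 76.1 CPM against 1.53 and 2.89 CPM (log2 fold change 4.85, standard error 0.44, adjusted p = 0.00256). Ifitm3, an interferon-induced membrane gene, was at 811 and 754 CPM against 156 and 279 CPM (log2 fold change 1.85, standard error 0.32, adjusted p = 0.0204) and was the 1 of 14 interferon-stimulated genes called.

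Of 99 genes of cytosolic ribosomal proteins 3 were called by edgeR, Rplp0, Rpsa and Rps27l, a share near edgeR's share of all genes. DESeq2 called 24 of these genes, beside 526 of all 12540 tested, a larger share than over all genes. In 87 the i.v. libraries lay above the i.c.v. libraries without overlap, as in 23.6% of all tested genes (2959 of 12540). Their summed level was 187820 and 182865 CPM against 138722 and 129125 CPM in all kept cells and 146388 and 130733 CPM against 142133 and 131046 CPM in the cells left after removal. Mbp, which encodes myelin basic protein of oligodendrocytes, was at 43.1 and 37.1 CPM against 17.6 and 20.5 CPM (log2 fold change 1.07, standard error 0.19, adjusted p = 0.0269), and the summed level of 8 oligodendrocyte markers was 162 and 82.1 CPM against 69.9 and 69.7 CPM. The part of oligodendrocyte RNA in these libraries was not tested. Summed choroid plexus and ependymal markers were 2746 and 294 CPM against 134 and 596 CPM, highest in the i.v. female, and 0 of the 4 tested were called.

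Genes lower after i.v. delivery were fewer and changed less. Adamts1, a secreted metalloprotease, was at 19.5 and 19.7 CPM against 105 and 75.5 CPM (log2 fold change -2.20, standard error 0.31, adjusted p = 0.00912). Nav3, a neuron navigator family gene, was at 13 and 4.2 CPM against 51.2 and 29.1 CPM (log2 fold change -2.16, standard error 0.45, adjusted p = 0.0431). Crybb1, a β-crystallin gene that microglia express early in life, was at 63.7 and 59 CPM against 272 and 114 CPM (log2 fold change -1.65, standard error 0.34, adjusted p = 0.0405). In each of the 3 both i.c.v. libraries lay above both i.v. libraries, as the rule that named them required. Cd34, a sialomucin of progenitors and endothelium, was at 19.8 and 19.4 CPM against 53.9 and 35.1 CPM (log2 fold change -1.18, standard error 0.22, adjusted p = 0.0308). Plxdc2 was at 119 and 161 CPM against 272 and 253 CPM (log2 fold change -0.91, standard error 0.19, adjusted p = 0.0452), and Smad7, an inhibitor of TGF-β signalling, was at 206 and 266 CPM against 409 and 428 CPM (log2 fold change -0.83, standard error 0.17, adjusted p = 0.048). Of 19 alternative fits Adamts1 was called in 17, Cd34 in 12, Nav3 in 11, Crybb1 in 9, and Plxdc2 and Smad7 in 6 each.

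**Figure D3:**
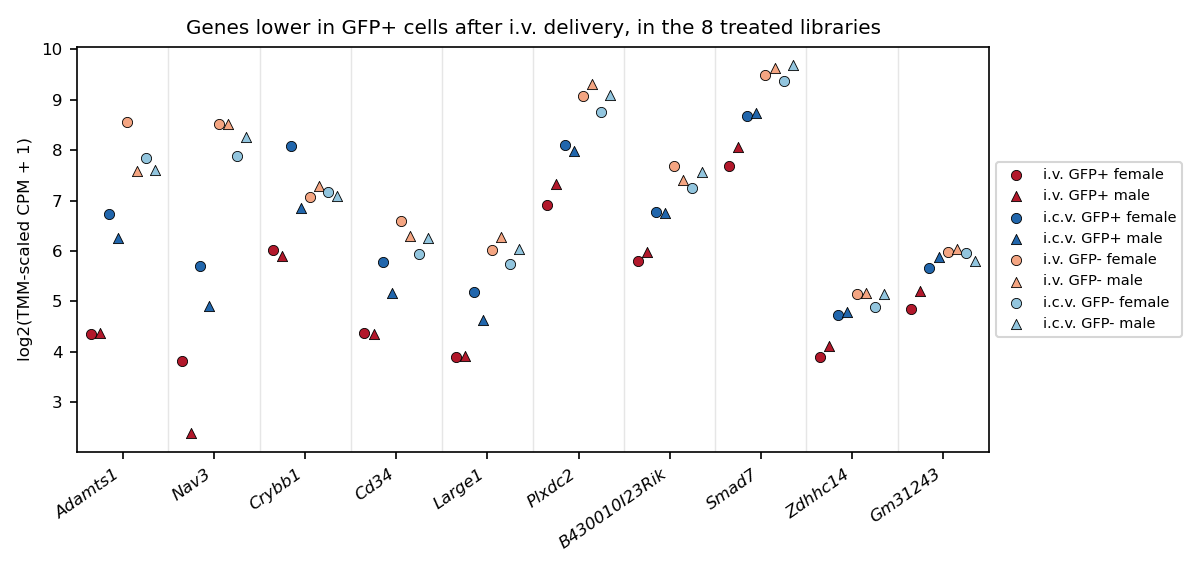
Log2(TMM-scaled CPM + 1) of the 10 named genes called lower in GFP+ cells after i.v. delivery on the vertical axis, with 1 point per library for the 8 treated libraries. Both i.c.v. GFP+ libraries lie above both i.v. GFP+ libraries for each gene, which the rule that chose these genes required.

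The identity lists of resident macrophages had no call by edgeR in the 8-library fit. Of 13 microglial markers 3 were called lower by DESeq2 (Sall1, Slc2a5 and Sparc) and 1 (Sparc) by edgeR in the 4 GFP+ libraries alone, named here after their values were seen. Over all genes DESeq2 called 82 of 12540 lower, and edgeR in the 4 GFP+ libraries alone called 7 of 11891 lower. In 11 of the 13 the i.v. libraries lay below the i.c.v. libraries without overlap, as in 22.9% of all tested genes (2871 of 12540), and the median log2 fold change was -0.52. Of 10 CAM markers 0 were called by edgeR or DESeq2 and the median was -0.19, whereas with the i.c.v. male's GFP+ cells left out 2 were called higher (Lyve1 and F13a1, likewise named afterwards) and the median was 0.53. Among the 10, Mrc1, the mannose receptor, was at 513 and 592 CPM against 511 and 722 CPM, and Ms4a7 was at 1043 and 847 CPM against 692 and 982 CPM. Among 8 MHC class I genes edgeR called 0 and DESeq2 called 1, and in all 8 the i.v. libraries lay above the i.c.v. libraries (23.6% of all tested genes), with a median of 0.44. Apoe, a lipid carrier, was at 71428 and 64966 CPM against 75935 and 93705 CPM (adjusted p = 0.559). Il1b, a cytokine, was at 661 and 2703 CPM against 539.8 and 1060.3 CPM and Hspa1a, a heat shock gene, at 147 and 1321 CPM against 1103 and 1524 CPM, both with overlap between routes.

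The share of cells with such transcripts was then compared. With every cell thinned to 500 UMIs, a UMI of any of the 7 genes was found in 8.10% of i.v. female cells (exact 95% interval 7.20 to 9.08) and in 7.59% of i.v. male cells (6.53 to 8.76). It was found in 0.267% of i.c.v. female cells (0.107 to 0.549) and in 1.5% of i.c.v. male cells (1.12 to 1.96). Both i.v. libraries were above both i.c.v. libraries, at 7.85% ± 0.363 against 0.883% ± 0.871 (SD, n = 2 each). The difference of 6.96 percentage points had a two-sided exact permutation p of 0.333, the smallest that 2 against 2 libraries allow. These intervals cover counting error only.

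At each cell's own depth the shares were 19.3% and 16.6% against 0.763% and 3.22%. In the CD45- neuron and astrocyte sorts of the naive mouse, 0 of 575 and 2 of 1146 cells (0.175%) held such a UMI at their own depth. The medians there were 6937 and 3395 UMIs. Those sorts left out CD45+ cells, so they cannot show the rate of stray UMIs in the treated libraries. In sorted microglia of the naive mouse 69 of 1274 cells (5.42%) held such a UMI at a median of 425 UMIs, above the i.c.v. GFP+ shares. In GFP- cells at 500 UMIs the shares were 1.79% and 1.51% against 4.29% and 3.4%, with both i.c.v. libraries above both i.v. libraries. S100a9 itself was found in 0 of 2621 and 0 of 3536 i.c.v. GFP+ cells, against 0.778% and 1.59% of i.v. cells. A count of 0 leaves room for up to 0.114% or 0.0848% of cells with a captured UMI, and does not limit the share of cells that express the gene. UMIs of at least 2 MHC class II genes were found in 35.3% and 38.3% against 3.62% and 16.7% of GFP+ cells.

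**Figure D4:**
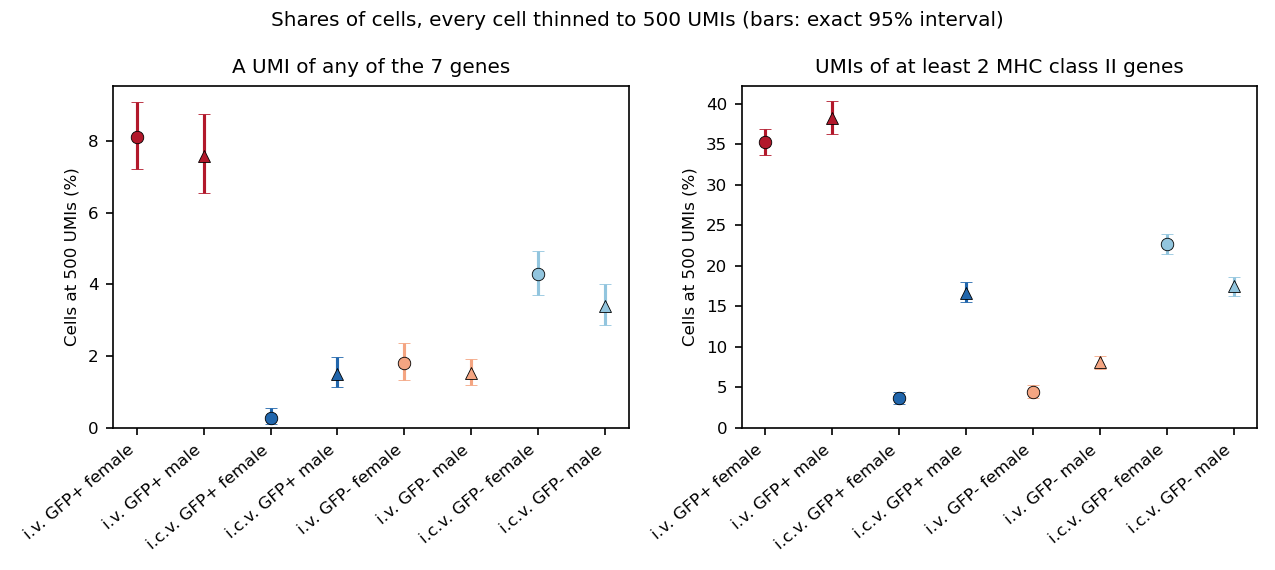
Percentage of cells with a UMI of any of the 7 genes (left) and with UMIs of at least 2 MHC class II genes (right), for each of the 8 treated libraries with every cell thinned to 500 UMIs. Bars are exact 95% intervals of counting error, and the i.v. GFP+ libraries lie above the i.c.v. GFP+ libraries in both panels.

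Removing every cell with any UMI of the 7 genes took out 645 (19.3%) and 377 (16.6%) of i.v. cells and 20 (0.763%) and 114 (3.22%) of i.c.v. cells. The removed cells were deeper than those retained, with median UMIs of 7730 and 9075 against 2548 and 1113 in the i.v. libraries, and of 4228.5 and 2043 against 1049 and 1041.5 in the i.c.v. libraries. They held 32.1% and 35.5% of i.v. UMIs. Of the removed cells at 500 UMIs, 72.9% and 71.6% against 40% and 21.9% held UMIs of at least 2 class II genes, and 32.9% and 22.3% against 55% and 46.5% held UMIs of at least 2 microglial markers. The removed i.v. cells held 71% and 75.9% of all Cd74 UMIs of their libraries.

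In the retained cells 1 gene rose and none fell of 12067 tested (0.00829% and 0%), where 536 had an unadjusted p under 0.05 and DESeq2 called 19. The 7 genes were at 0 here by construction and were not tested, and 6 of them were among the 321. The gene was Ccr7, at 14.5 and 10.2 CPM against 0.122 and 0 CPM (log2 fold change 7.40, standard error 0.73, adjusted p = 0.0427). With so few i.c.v. UMIs this fitted fold depends on the prior count and is no bound. Of the 321 genes higher in all cells, 231 were tested again and 215 had the same sign. The rest of the 321 were not tested in the retained cells, so they could not be called there. The median log2 fold change of the 231 was 0.73, beside 3.1 over the 321 in all cells. These medians cover different sets of genes, so the gap between them is not that of the same genes. All 27 lower genes kept their sign, with a median of -0.60 beside -0.91, and of all tested genes 81.1% (9775 of 12058) kept theirs. These signs are a description, since the retained cells are part of the same libraries.

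None of the 8 MHC class II genes was called by edgeR in the retained cells, and their median log2 fold change was 2.53. Cd74 was at 5385 and 5107 CPM against 393 and 1489 CPM (log2 fold change 2.48, standard error 0.49, adjusted p = 0.384). Ciita was at 21.8 and 24.9 CPM against 1.58 and 5.98 CPM (log2 fold change 2.59, standard error 0.44, adjusted p = 0.194), and H2-DMb1 was at 265 and 216 CPM against 101 and 135 CPM (log2 fold change 1.03, standard error 0.17, adjusted p = 0.194). The i.v. libraries still lay above the i.c.v. libraries for these 3 genes. The naming rule for retained cells requires such a lack of overlap, so for genes it picked this is not a result. Other class II genes are not given here by library. For H2-Oa the removed cells held 81.7% and 83% of its i.v. UMIs, against 0.855% and 1.25% of its i.c.v. UMIs. UMIs of at least 2 class II genes were found in 26.3% and 31.6% against 3.34% and 16.5% of retained cells at 500 UMIs. Of other genes that were not called, Emb was at 8.42 and 8.51 CPM against 1.46 and 1.71 CPM (log2 fold change 2.40, standard error 0.28, adjusted p = 0.0863), Fcgr4, an Fc receptor, was at 23.8 and 25.5 CPM against 10.8 and 7.05 CPM (log2 fold change 1.47, standard error 0.22, adjusted p = 0.194), and Adamts1 was at 26 and 26.9 CPM against 109 and 80.5 CPM (log2 fold change -1.84, standard error 0.31, adjusted p = 0.194).

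The number of calls varied with the cells taken out and also with depth. With every cell thinned to 500 UMIs and none taken out, 76 genes rose and 6 fell. The parts of depth and of cell type in these changes were not tested. With removal decided from 500 UMIs drawn per cell, the same number for every cell, 143 genes rose and 6 fell, and 142 of the 143 were among the 321. Removal at 2 or more UMIs left 5 higher and 0 lower by edgeR. With only the cells holding a neutrophil marker removed, 288 rose and 26 fell, and all 8 class II genes were among those that rose. With cells above 5000 UMIs removed, 44 rose and 7 fell, and 2 of 8 class II genes rose. The last 2 sets were chosen after seeing the data.

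**Figure D5:**
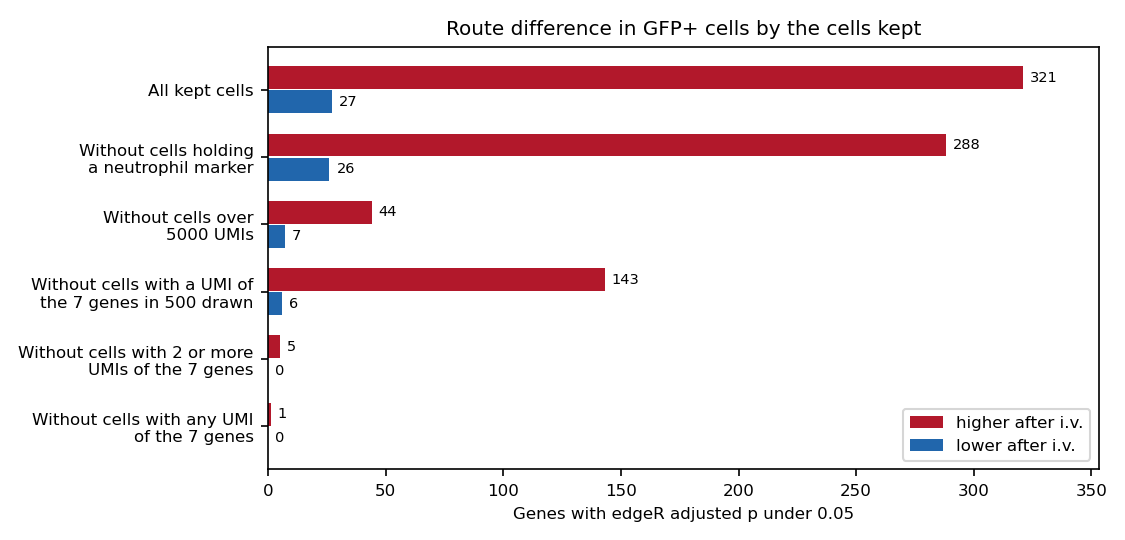
Number of genes called at an edgeR adjusted p under 0.05 (horizontal axis) as higher (red) or lower (blue) in GFP+ cells after i.v. delivery, for 6 choices of the cells kept. The count of higher genes goes from 321 in all kept cells to 1 with every cell holding any UMI of the 7 genes removed. In that last set the 7 genes are at 0 by construction, and not all of the 321 genes were tested.

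GFP- cells of the same mice were tested for the same difference, and 0 genes were called in either direction by edgeR (0% and 0%), with 1063 at an unadjusted p under 0.05 and 68 called by DESeq2. The difference between the GFP+ and GFP- route differences, tested as an interaction, was more positive in GFP+ cells for 226 genes (1.8%) and more negative for 14 (0.112%). With the mouse as a replicate block the total was 678 in place of 240. S100a9 was at 121 and 28.2 CPM against 2536 and 378 CPM in GFP- cells, higher in both i.c.v. than in both i.v. libraries, the reverse of the order in GFP+ cells (interaction adjusted p = 0.0146). Camp was at 0.357 and 0.794 CPM against 485 and 115 CPM in GFP- cells (interaction adjusted p = 0.00673). Ccr2 was at 23.2 and 14.2 CPM against 24 and 13.5 CPM in GFP- cells, with overlap between routes (interaction adjusted p = 0.00673). Of the 8 class II genes 7 had a called interaction, and Cd74 was at 1733 and 1271 CPM against 2481 and 2307 CPM in GFP- cells (interaction adjusted p = 0.0245). Adamts1 was at 376 and 191 CPM against 228 and 193 CPM in GFP- cells (interaction adjusted p = 0.0242). With cells holding a UMI of the 7 genes removed from all libraries, 0 interactions were called by edgeR, with 892 at an unadjusted p under 0.05, 76 called by DESeq2 and 16 with the mouse as a block.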

How the data were processed

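Droplet single-cell RNA sequencing was performed on 12 libraries, of which the 8 treated ones (GFP+ and GFP- cells of 4 mice) entered the tests and 4 naive ones served as description. The authors deposited raw UMI counts per gene and barcode, made with Cell Ranger against mm10 according to the submitters' processing notes, and the matrix headers give software version 3.1.0. No doublet caller was run, and an alternative left out cells above 5000 UMIs.

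Counts of cells (200 or more genes, mitochondrial UMIs no higher than 10%) were summed per library and tested with edgeR 4.0.16 (TMM, glmQLFit and glmQLFTest, filterByExpr) in R 4.3.3, with 1 fit to all 8 libraries and Benjamini-Hochberg adjustment. DESeq2 1.42.0, other normalizations, cell filters, thinning to 500 or 1000 UMIs, recipient sex, the mouse as a block and each library left out were alternatives. The test script was checked on simulated counts. A gene with no UMI in either i.c.v. library was set against a floor of 3 UMIs, and intervals of 95% are exact and cover counting error only. Columns of per-sample values left unused numbered 0.

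The members, lists and tests were chosen with earlier results of these data known, and the lists include genes that the study named in MLCs from these samples. Named genes were the 7 genes and EGFP, the 10 largest called changes per direction with at least 20 CPM and no overlap (5 per direction without the removed cells, filled by the smallest unadjusted p where fewer were called, and in the interaction called genes only), and, in each of 38 lists, the 3 most abundant members and every called one. Some genes that this rule names are not reported here. Animal numbers in the sample titles pair the GFP+ and GFP- libraries of a mouse. Deviations of paired libraries from their group means correlated at 0.380 (i.v.) and 0.0168 (i.c.v.) over 12540 genes.

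Promoter windows were taken from a RefSeq table of GRCm38.p6. Analyses used Python 3.11.15 with scipy 1.17.1.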

Additional observations from a re-analysis of the deposited data

Results flagged for a closer look

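The route difference in GFP+ cells differed from that in GFP- cells for 240 genes by the interaction test in edgeR (mouse as a block: 678). For S100a8 (interaction adjusted p = 0.0167), S100a9 (0.0146), Camp (0.00673), Ngp (0.00673) and Lcn2 (0.00673), both i.v. libraries lay above both i.c.v. libraries in GFP+ cells, and both i.c.v. libraries lay above both i.v. libraries in GFP- cells. Among genes lower in GFP+ cells after i.v. delivery, the difference differed for Adamts1 (0.0242), Cables1 (0.0396), Capn3 (0.0298) and Cd34 (0.0493). The part of blood cells in these differences was not tested.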

How the results depend on the processing

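The count of 348 genes called between routes in GFP+ cells became 526 with DESeq2, 679 without a filter on low counts, 82 with cells thinned to 500 UMIs and 51 without cells above 5000 UMIs. It ranged from 42 to 293 with 1 library left out, and was lowest without the i.c.v. female GFP+ library (180 without the i.c.v. male). The 1 gene called without cells holding a UMI of the 7 genes became 19 with DESeq2, 323 without the low-count filter, 149 with removal from 500 drawn UMIs, 5 with removal at 2 or more UMIs and 3 with recipient sex as a covariate. It became 0 with the 4 GFP+ libraries alone, all deposited barcodes, the stricter cell filter, thinning, drawn-down totals or cells above 5000 UMIs removed, and ranged from 0 to 8 with 1 library left out (8 without the i.c.v. male GFP+ library).

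The 240 interaction calls became 678 with the mouse as a replicate block, 598 with DESeq2, 698 without the low-count filter, 412 with sex, 142 with the stricter filter, 139 without cells holding a neutrophil marker, 70 with thinning, 30 without cells above 5000 UMIs and 0 without cells holding a UMI of the 7 genes. With 1 library left out they ranged from 41 to 239, with 41 without either the i.c.v. female or the i.v. male GFP- library, 49 without the i.c.v. female GFP+ library, 101 without the i.v. female GFP- library, 133 without the i.v. male GFP+ library and 135 without the i.c.v. male GFP+ library. The cause of these changes was not tested. The difference in the 7-gene share of GFP+ cells kept its direction at every depth tried, at 6.96 to 16.0 percentage points. For a UMI of Ly6c2, Ccr2 or Plac8 alone the difference was 3.93 to 12.0 percentage points. Removing cells above 5000 UMIs, removing neutrophil-marker cells and removing the 7-gene cells from the interaction were chosen after seeing the data. With 2 libraries per group, a difference that was not called is not shown to be absent.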
